A study of Mus musculus with 19 samples.

Results

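The 32 genes described here encode enzymes of cholesterol and fatty acid synthesis and the proteins that control them. They were chosen by name, as the rows whose gene symbol equals a list of 32 symbols, and all 32 were found among the 24058 gene names of the expression tables. Each of them also passed the filter on low values, which kept the 14801 genes that reached 1 RPKM in no fewer than 3 libraries. RPKM is the number of reads of a gene divided by its length in kilobases and by the size of the library in M reads (M, mega). The genes fall into 4 roles: 8 of the mevalonate pathway, 9 of the later sterol steps, 6 that control the pathway or carry its product, and 9 of fatty acid synthesis.

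All 19 samples of the series are hippocampal neurons of mouse embryos, taken at day 17 and cultured for 10 days. Poly(A) RNA was sequenced from ICR mice in 3 groups of 3 libraries: non-treated neurons, neurons given tetrodotoxin (TTX, which blocks voltage-gated sodium channels and so silences firing), and neurons given bicuculline with 4-aminopyridine (Bic/4AP) for 3 h. Bicuculline blocks GABA-A receptors and 4-aminopyridine blocks potassium channels, and together they drive bursts of firing. How long TTX was given is not stated in the labels, and no genotype other than the strain is named. The labels do not tie libraries to cultures or animals, so p-values measure the spread between libraries, which may be technical. H3K27ac peak lists (2 non-treated and 2 Bic/4AP samples) and H3K4me1 lists (2 non-treated samples) also came from ICR neurons, and CpG methylation came from C57BL/6 neurons with 1 library per treatment.

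Cells build cholesterol from acetyl-CoA through mevalonate, then squalene and lanosterol, in a chain of enzymes on the endoplasmic reticulum. When sterol in that membrane runs low, SCAP escorts the transcription factors SREBP-1 and SREBP-2 to the Golgi, where they are cut, and the released parts switch on the genes of sterol and fatty acid synthesis; INSIG proteins hold SCAP back when sterol is plentiful. Brain cholesterol is made locally, since plasma lipoproteins do not cross the blood-brain barrier, and both neurons and astrocytes take part.

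SREBP binds sterol elements, and at many of its target genes it acts with NF-Y, which binds the sequence CCAAT, and Sp1, which binds GC boxes. A RefSeq table (GRCm38.p6, the assembly also called mm10) gave a promoter for 25 of the 32 genes, 250 bases before to 50 after the start. Both strands were searched for 6 motifs, and overlaps between motifs were allowed. The sterol element TCACNCCAC was found in 1 of the 25 promoters, that of Hmgcs1, and in 1.07% of the 10680 promoters of tested genes. CCAAT was found in 18 of 25 (72.0%) against 38.8% of all promoters. GGGCGG was found in 17 of 25 (68.0%) against 64.0%. CACGTG was found in 3 of 25 against 10.0%. The letters of 2 elements linked to neuronal activity, TGACGTCA and TGANTCA, were in none of the 25 windows, against 3.24% and 4.56% of all promoters. A match of letters is not a bound site, and a window without a match says nothing about the factor.

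The stretches below are the 250 bases before the start of 3 genes that the results turn on, each 5′ to 3′ on the strand of the gene, with the sterol element and the CCAAT boxes of either strand in capitals. Hmgcs1 (chr13:119690101-119690350, plus strand) is shown because it is the promoter with the sterol element and the most abundant of the 32 transcripts. Ebp (chrX:8193513-8193762, minus strand) and Mvk (chr5:114444019-114444268, plus strand) were added after their values had been seen, because among the 32 genes Ebp had the largest rise with Bic/4AP and Mvk the largest with TTX.
Hmgcs1: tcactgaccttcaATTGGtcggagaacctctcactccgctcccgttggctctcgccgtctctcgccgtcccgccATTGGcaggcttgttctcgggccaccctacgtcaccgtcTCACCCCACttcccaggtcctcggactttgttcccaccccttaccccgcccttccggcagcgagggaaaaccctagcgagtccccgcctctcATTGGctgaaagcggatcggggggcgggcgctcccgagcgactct
Ebp: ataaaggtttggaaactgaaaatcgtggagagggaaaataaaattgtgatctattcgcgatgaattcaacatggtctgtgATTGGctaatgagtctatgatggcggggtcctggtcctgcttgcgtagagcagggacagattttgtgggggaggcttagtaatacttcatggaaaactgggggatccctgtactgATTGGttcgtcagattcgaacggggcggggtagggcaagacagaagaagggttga
Mvk: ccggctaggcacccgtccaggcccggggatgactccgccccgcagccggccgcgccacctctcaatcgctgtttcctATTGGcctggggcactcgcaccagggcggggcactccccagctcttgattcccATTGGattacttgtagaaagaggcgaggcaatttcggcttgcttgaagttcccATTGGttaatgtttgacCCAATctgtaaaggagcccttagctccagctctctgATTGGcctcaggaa

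The scale of the RPKM values bears on every comparison. Library depth, recovered from the steps of the low values, was 9.66 to 12.6 M reads with TTX, 5.61 to 9.94 M without treatment and 4.33 to 4.58 M with Bic/4AP, so depth and treatment cannot be told apart. Genes of high level read lower in deeper libraries, also inside a group: in non-treated library 2, against the shallower library 1, the median log2 ratio was -0.15 over 1742 genes above 40 RPKM and 0.17 over 3446 genes between 10 and 20 RPKM. In non-treated library 1 against library 3, of nearly the same depth, these medians were 0.08 and -0.03. Of the 32 genes, 15 lie in the highest decile of all tested genes by level. There the median log2 change over all genes was 0.45 with Bic/4AP and -0.08 with TTX, each against non-treated. The calls given first below are therefore those that passed with the same sign as deposited, after quantile normalization, which gives every library the same distribution of values, and after cyclic loess normalization, which removes level-dependent differences between libraries.

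The libraries also differed in the markers of other cells. Summed RPKM of 8 choroid plexus genes was 333 to 496 in the non-treated libraries, 23.9 to 29.3 with Bic/4AP and 8.05 to 12.2 with TTX. Summed RPKM of 9 astrocyte genes was 135 to 145 non-treated, 202 to 233 with Bic/4AP and 172 to 194 with TTX, and that of 10 neuronal genes was 720 to 867, 1141 to 1184 and 687 to 766. In the same order, sums for the oligodendrocyte lineage were 23.0 to 29.7, 22.2 to 28.7 and 43.0 to 52.1, for microglia 6.33 to 7.25, 5.23 to 8.09 and 6.86 to 9.26, and for vascular and mural cells 28.9 to 36.8, 34.3 to 48.6 and 40.6 to 48.2. Of 9 astrocyte genes, 6 rose with Bic/4AP and 3 rose and 1 fell with TTX under all 3 scalings, while all 8 choroid plexus genes fell in both. Of 10 neuronal genes, 3 rose and 1 fell with Bic/4AP and 2 rose and 4 fell with TTX. Of all tested genes 21.6% rose and 27.8% fell with Bic/4AP, and 28.7% and 21.8% with TTX. The neuronal calls with Bic/4AP turned with the scaling, from 8 higher and 1 lower as deposited to 3 higher and 7 lower after loess normalization. No marker of neurons, astrocytes or microglia was at 0 in any library, while Sox10 and Mog of the oligodendrocyte lineage, Kcnj13 of the choroid plexus and Cldn5 and Cdh5 of the vascular cells were each at 0 in some TTX or Bic/4AP libraries. The part of these cells in the results below was not tested, and in bulk RNA fewer cells of a type and less RNA per cell cannot be told apart.

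The 32 genes were expressed in every library. In the non-treated neurons their means ran from 8.58 RPKM for Srebf1 to 107 for Hmgcs1. Summed over all 32, RPKM was 1265, 1210 and 1147 in the 3 non-treated libraries, 1355, 1374 and 1451 with TTX and 1557, 1581 and 1644 with Bic/4AP. The sums of the 3 groups did not overlap, but they are of deposited values, in which abundant genes weigh most. No sum was made after normalization. The median log2 change of the 32 genes for Bic/4AP against TTX was 0.14 as deposited. It was -0.17 after quantile and -0.14 after loess normalization, so the order of these 2 groups depended on the scaling.

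**Figure D1:**
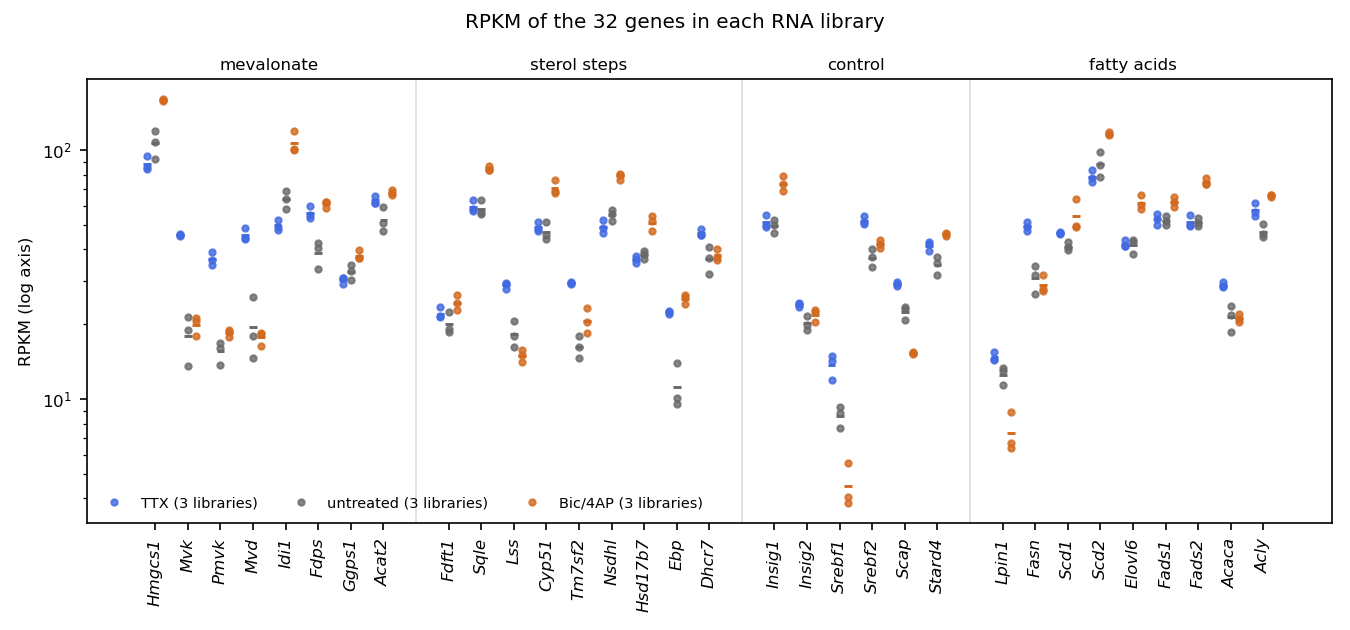
RPKM of each of the 32 genes (log axis) in the 9 RNA libraries, grouped by role; points are libraries and short bars are group means (n = 3). Mvk, Pmvk and Mvd stood apart with TTX, Ebp was lowest without treatment, and Srebf1, Lpin1, Scap and Lss were lowest with Bic/4AP.

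Bic/4AP against non-treated neurons asks what 3 h of driven firing does to these genes. Under all 3 scalings 11 of the 32 rose and 1 fell, where 21.6% of all tested genes rose and 27.8% fell. The genes that rose came from each role: Idi1, Fdps and Pmvk of the mevalonate pathway, Ebp, Cyp51, Hsd17b7, Tm7sf2 and Fdft1 of the sterol steps, the sterol carrier gene Stard4, and Elovl6 and Fads2 of the fatty acid genes. The gene that fell was Scap. As deposited, 22 rose and 4 fell (all genes: 29.6% rose and 42.5% fell), with 14 and 3 after quantile (all genes: 38.8% and 30.9%) and 13 and 5 after loess normalization (35.8% and 35.0%). The 29.6% is not a share of genes of like level. In the highest decile, which holds 15 of the 32, 87.2% of all genes rose as deposited. In the decile below it, which holds 5 of the 32, 56.0% did.

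Over the 32 genes the median log2 change was 0.35 on the deposited values, and quantile and loess normalization brought it to 0.09 and 0.08; over all genes the same medians were -0.12, 0.06 and 0.02. In 22 genes every Bic/4AP library lay above every non-treated library and in 4 below, where 28.6% and 42.7% of all genes did so. These shares were not counted by level. Against the median change of genes of the same decile by level, 19 of the 32 lay above and 13 below. The tests were made with limma on log2(RPKM + 1) over all 14801 genes, with Benjamini-Hochberg adjustment, and they understate changes of low genes.

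In the mevalonate pathway, Idi1 isomerizes isopentenyl diphosphate, the building block of all isoprenoids. It read 68.8, 58.2 and 63.8 RPKM in the non-treated libraries and 100.1, 101 and 119 with Bic/4AP. The groups did not overlap, and the log2 change was 0.74 (SE 0.08, adjusted p = 5.56e-06), with 0.21 after quantile and 0.22 after loess normalization. Fdps, which makes farnesyl diphosphate at the branch point to sterols and prenylated proteins, read 42.3, 40.6 and 33.4 RPKM without treatment and 58.5, 62.3 and 62.0 with Bic/4AP. Its log2 change of 0.65 (SE 0.08, adjusted p = 1.68e-05) became 0.30 under each of the other scalings. Pmvk, phosphomevalonate kinase, rose from 15.6 ± 1.61 to 18.5 ± 0.678 RPKM (SD, n = 3; log2 change 0.24, adjusted p = 0.015, with 0.46 and 0.35 after quantile and loess normalization), a call that was lost without non-treated library 3 (log2 change 0.16, adjusted p = 0.0516).

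Hmgcs1, the cytosolic HMG-CoA synthase that opens the mevalonate pathway, read 120, 92.6 and 108 RPKM without treatment and 159, 161 and 157 with Bic/4AP. All 3 Bic/4AP libraries were higher, and the log2 change was 0.58 (SE 0.09, adjusted p = 8.45e-05) as deposited. It was 0.05 after quantile normalization (adjusted p = 0.156) and -0.19 after loess normalization (adjusted p = 7.18e-05), so the direction depended on the scaling. Acat2, the cytosolic thiolase before it, and Ggps1, which makes geranylgeranyl diphosphate, rose as deposited with log2 changes of 0.36 and 0.21 and did not pass under either other scaling. Mvk and Mvd, the first kinase and the decarboxylase of the pathway, did not pass as deposited: Mvk was at 19.9 ± 1.71 against 18.0 ± 3.97 RPKM and Mvd at 17.8 ± 1.21 against 19.4 ± 5.63. Mvk passed as higher after quantile normalization (0.32, adjusted p = 0.0413) and not after loess normalization (0.18), and Mvd passed under no scaling.

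Among the sterol steps Ebp had the largest change of all 32 genes. It encodes the sterol isomerase that moves the double bond of the B ring, one of the last steps before cholesterol. Ebp read 10.1, 14.0 and 9.61 RPKM without treatment and 26.1, 25.8 and 24.2 with Bic/4AP. Every Bic/4AP library was above every non-treated library, and the log2 change was 1.13 (SE 0.11, adjusted p = 1.94e-06), with 1.30 and 1.34 after quantile and loess normalization. In the same decile the median gene changed by -0.15.

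Cyp51, the lanosterol demethylase, read 51.6, 45.9 and 44.1 RPKM without treatment and 67.2, 68.6 and 76.3 with Bic/4AP. The groups did not overlap, and the log2 change was 0.57 (adjusted p = 1.47e-05), with 0.17 and 0.19 under the other scalings. Hsd17b7, a sterol ketoreductase, rose by 0.41, Tm7sf2, a sterol reductase, by 0.33 and Fdft1, the squalene synthase, by 0.28 on the log2 scale, with adjusted p of 4.85e-05, 0.00534 and 0.00748. After quantile and loess normalization the changes were 0.13 and 0.17 for Hsd17b7, 0.50 and 0.46 for Tm7sf2 and 0.37 and 0.39 for Fdft1. The epoxidase gene Sqle (84.6 ± 1.81 against 58.3 ± 4.04 RPKM) and the sterol dehydrogenase gene Nsdhl (78.6 ± 2.43 against 55.1 ± 2.85) rose as deposited and passed under neither other scaling, with log2 changes of 0.04 to 0.07 there. Lss, which closes squalene epoxide into lanosterol, fell as deposited (15.0 ± 0.835 against 18.3 ± 2.22 RPKM, log2 change -0.27, adjusted p = 0.011) and did not pass under the other scalings. Dhcr7, the last reductase of the chain, did not pass, at 37.9 ± 1.89 against 36.6 ± 4.54 RPKM.

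Of the control genes, Scap, which encodes the escort of the SREBP proteins, read 20.8, 23.5 and 23.1 RPKM without treatment and 15.3, 15.5 and 15.2 with Bic/4AP. The Bic/4AP libraries were all lower, and the log2 change of -0.52 (SE 0.06, adjusted p = 8.4e-06) was -0.30 and -0.39 under the other scalings. Stard4, a carrier that moves cholesterol between membranes, rose from 34.7 ± 2.87 to 46.0 ± 0.506 RPKM (log2 change 0.40, adjusted p = 0.000105), with 0.18 and 0.17 under the other scalings. Srebf1, the gene of SREBP-1, read 7.65, 9.30 and 8.78 RPKM without treatment and 3.84, 4.07 and 5.55 with Bic/4AP.

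All 3 Bic/4AP values of Srebf1 were below the non-treated ones, and the log2 change was -0.81 (SE 0.14, adjusted p = 0.000225) as deposited. It did not pass after quantile (-0.20, adjusted p = 0.165) or loess normalization (-0.30, adjusted p = 0.0562), and the median gene of its decile changed by -0.54. Srebf2, the gene of SREBP-2, the main activator of sterol synthesis genes, was at 42.1 ± 1.54 against 37.1 ± 3.07 RPKM. It rose as deposited (log2 change 0.18, adjusted p = 0.0225), but the sign turned under the other scalings (-0.03 and -0.08), and the call was lost without non-treated library 3 or without Bic/4AP library 1 or 2. Insig1, an SREBP target that feeds back on the pathway, was at 73.5 ± 5.09 against 49.8 ± 2.93 RPKM; it rose as deposited (log2 change 0.55) and after loess (0.14), not after quantile normalization (0.12, adjusted p = 0.0613). Insig2 was at 21.9 ± 1.23 against 20.2 ± 1.24997 RPKM and did not pass as deposited (log2 change 0.11), while it passed as higher after quantile (0.23) and loess normalization (0.23).

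Among the fatty acid genes, Elovl6, which lengthens palmitate to stearate, read 42.7, 43.7 and 38.4 RPKM without treatment and 58.1, 60.2 and 66.1 with Bic/4AP. The groups did not overlap, and the log2 change was 0.55 (adjusted p = 1.01e-05), with 0.19 and 0.24 under the other scalings. Fads2, the delta-6 desaturase of polyunsaturated fatty acids, was at 74.9 ± 2.36 against 51.4 ± 2.01 RPKM, with log2 changes of 0.53, 0.10 and 0.11 under the 3 scalings. Acly, which supplies cytosolic acetyl-CoA, and Scd1, a stearoyl-CoA desaturase, rose as deposited by 0.48 and 0.38 on the log2 scale. Acly kept the call after quantile (0.10, adjusted p = 0.0479) and lost it after loess normalization (0.07), and Scd1 lost it after both (0.08 and 0.08).

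Scd2, the second desaturase, read 98.4, 78.0 and 87.6 RPKM without treatment and 116, 116 and 119 with Bic/4AP, and Fads1, the delta-5 desaturase, 54.4, 50.3 and 51.9 against 59.2, 62.1 and 65.2. Both rose as deposited (log2 change 0.41 and 0.25) and both passed as lower after quantile (-0.11 and -0.13) and loess normalization (-0.25 and -0.15). Scd1 and Scd2 are close paralogs, and the labels do not say how shared reads were assigned, so their split is uncertain. Lpin1, a phosphatidate phosphatase of glycerolipid synthesis, fell as deposited from 12.6 ± 1.06 to 7.32 ± 1.41 RPKM (log2 change -0.72, adjusted p = 0.000158) and did not pass under the other scalings. Fasn, the fatty acid synthase, and Acaca, the carboxylase before it, did not pass as deposited, at 28.9 ± 2.34 against 30.8 ± 3.99 RPKM and 21.1 ± 0.751 against 21.4 ± 2.57. Fasn passed as lower after loess normalization (-0.24, adjusted p = 0.0147) and, as deposited, without non-treated library 3 (-0.19, adjusted p = 0.0379), while Acaca passed under no scaling.

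**Figure D2:**
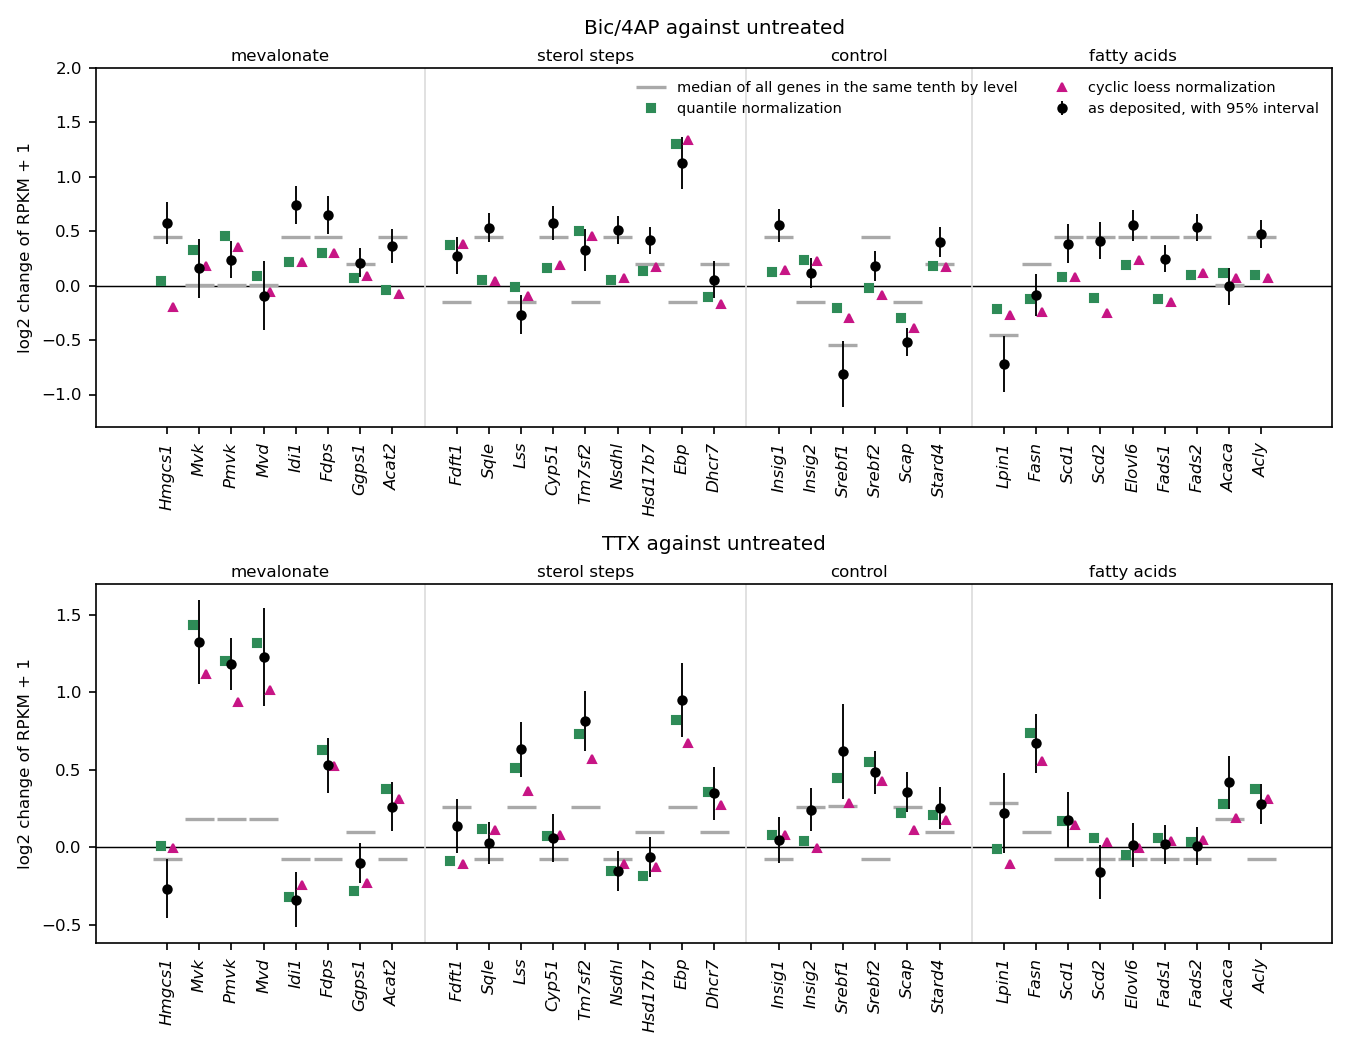
Log2 change of each of the 32 genes with Bic/4AP (top) and TTX (bottom) against non-treated, as deposited with its 95% interval (circles), after quantile normalization (squares) and after cyclic loess normalization (triangles); grey bars are the median of all genes in the same decile by level. With Bic/4AP most circles lie above the squares and triangles for genes whose grey bar is at 0.45, while Ebp keeps a change above 1 in all 3; with TTX Mvk, Pmvk and Mvd lie between 0.94 and 1.43 throughout.

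Without non-treated library 2, the remaining non-treated libraries held 5.61 and 5.71 M reads, nearer to the 4.33 to 4.58 M with Bic/4AP. Ebp, Scap and Idi1 passed in each fit that left out 1 library of either group, and Mvk and Insig2, which did not pass as deposited with all libraries, passed as higher without non-treated library 2 (log2 changes 0.29 and 0.16, adjusted p = 0.0347 and 0.032).

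**Figure D3:**
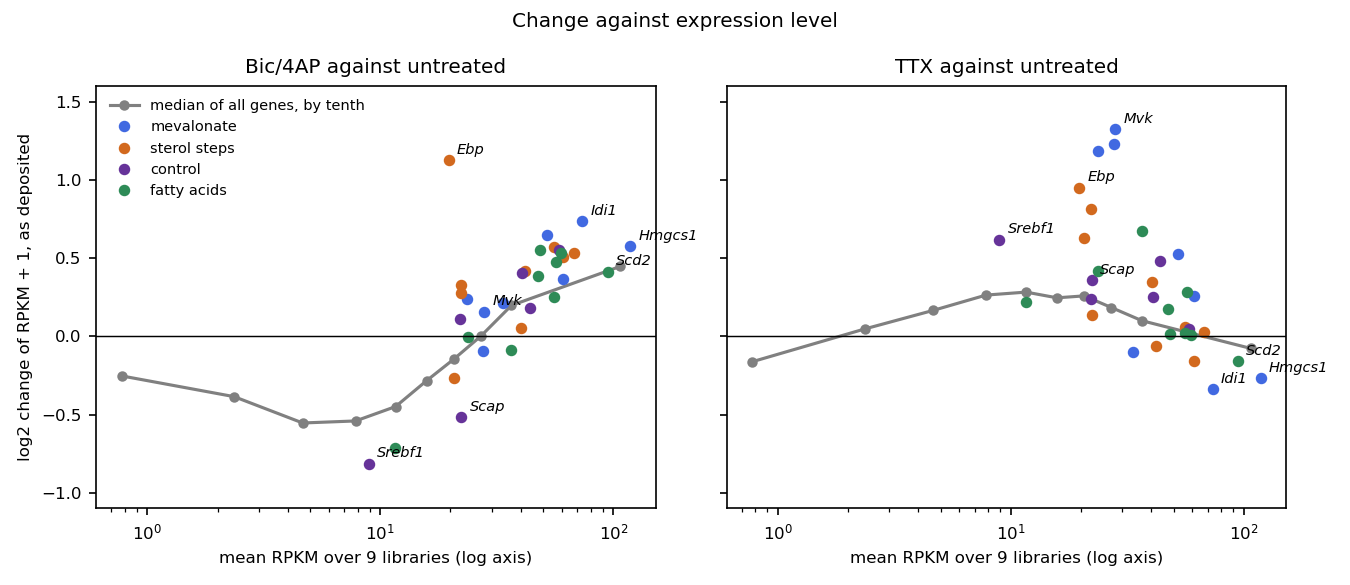
Log2 change as deposited against mean RPKM over the 9 libraries (log axis), for Bic/4AP (left) and TTX (right) against non-treated; the grey line joins the median change of all tested genes in each decile by level and coloured points are the 32 genes by role. With Bic/4AP the line climbs to 0.45 in the highest decile, where 15 of the 32 genes lie, and Ebp stands above it; with TTX the line ends at -0.08.

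TTX against non-treated neurons asks what silencing does to the same genes. Under all 3 scalings 14 of the 32 rose and 2 fell, where 28.7% of all tested genes rose and 21.8% fell. The largest rises were in 3 consecutive enzymes of the mevalonate pathway, Mvk, Pmvk and Mvd, each to over 2 times the non-treated level, followed by Ebp and Tm7sf2 of the sterol steps and Fasn of the fatty acid genes. Idi1 and Nsdhl fell. As deposited, 17 rose and 3 fell (all genes: 40.6% and 23.5%), with 17 and 4 after quantile (all genes: 37.3% and 31.9%) and 15 and 4 after loess normalization (30.8% and 35.4%). Over the 32 genes the median log2 change was 0.25 on the deposited values and 0.19 and 0.13 under quantile and loess normalization; over all genes it was 0.13, 0.05 and -0.03.

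Mvk, mevalonate kinase, read 19.0, 21.4 and 13.7 RPKM without treatment and 46.3, 45.5 and 45.9 with TTX. Mvd, the diphosphomevalonate decarboxylase, read 18.0, 25.7 and 14.7 without treatment and 44.7, 44.0 and 48.7 with TTX. Pmvk, the kinase between them, read 16.1, 16.8 and 13.8 without treatment and 36.4, 34.6 and 38.9 with TTX. No TTX library overlapped a non-treated one in these 3 genes. The log2 changes were 1.32 (SE 0.12, adjusted p = 5.05e-06) for Mvk, 1.23 (SE 0.15, adjusted p = 2.42e-05) for Mvd and 1.18 (SE 0.08, adjusted p = 4.11e-07) for Pmvk. The median gene of their decile changed by 0.18.

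TTX library 3 and non-treated library 2 had nearly the same depth, 9.66 and 9.94 M reads. Between these 2 libraries, a pair with no replicate check, the ratio of RPKM was 2.15 for Mvk, 2.31 for Pmvk, 1.90 for Mvd, 1.57 for Ebp, 1.66 for Tm7sf2 and 1.496 for Fasn, and 0.904 for Idi1.

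In the rest of the mevalonate pathway, Fdps rose from 38.8 ± 4.73 to 56.1 ± 3.27 RPKM (log2 change 0.53, adjusted p = 0.000146) and Acat2 from 52.5 ± 5.93 to 62.9 ± 2.54 (0.26, adjusted p = 0.00773). Idi1 read 48.1, 49.3 and 52.7 RPKM with TTX, all below the 58.2 to 68.8 of the non-treated libraries, and fell by 0.34 on the log2 scale (adjusted p = 0.00308). Hmgcs1 read 84.5, 85.5 and 94.6 RPKM with TTX against 120, 92.6 and 108, groups that overlap. It fell as deposited by 0.27 (adjusted p = 0.0179), but the change was 0.01 after quantile and -0.01 after loess normalization, and the call was lost without TTX library 1 or 2 or non-treated library 1 or 3 (adjusted p = 0.0573 to 0.0646). Ggps1 did not pass as deposited, at 30.2 ± 0.916 against 32.6 ± 2.24 RPKM, and passed as lower under the other scalings (log2 change -0.28 and -0.23).

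Of the sterol steps, Ebp read 22.7, 22.3 and 22.0 RPKM with TTX against 9.61 to 14.0 without treatment, a log2 change of 0.95 (SE 0.11, adjusted p = 1.9e-05). Ebp was thus higher than non-treated both with TTX and with Bic/4AP, comparisons that share the non-treated libraries. Tm7sf2 read 29.2, 29.1 and 29.6 RPKM with TTX against 16.3, 17.9 and 14.6 (log2 change 0.82, adjusted p = 1.32e-05). Lss rose from 18.3 ± 2.22 to 28.7 ± 0.889 RPKM (0.63, adjusted p = 4.6e-05, with 0.37 after loess normalization) and Dhcr7 from 36.6 ± 4.54 to 46.6 ± 1.55 (0.35, adjusted p = 0.00224).

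Nsdhl fell from 55.1 ± 2.85 to 49.3 ± 2.80 RPKM (log2 change -0.16, adjusted p = 0.0353) in groups that overlap, and the call was lost without TTX library 1 or 2 or non-treated library 1 or 3 (adjusted p = 0.0857 to 0.148). Fdft1, Sqle, Cyp51 and Hsd17b7 did not pass as deposited. They were at 22.1 ± 1.14 against 20.1 ± 1.99, 59.5 ± 3.29 against 58.3 ± 4.04, 49.2 ± 2.27 against 47.2 ± 3.92 and 36.4 ± 1.21 against 38.1 ± 1.39 RPKM. After quantile and loess normalization Sqle passed as higher (0.12 and 0.11) and Hsd17b7 as lower (-0.19 and -0.13), and Fdft1 and Cyp51 passed under neither.

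Of the control genes, Srebf2 read 37.4, 39.99 and 33.9 RPKM without treatment and 50.4, 51.6 and 54.5 with TTX, which did not overlap. Its log2 change was 0.48 (SE 0.06, adjusted p = 5.26e-05), with 0.55 and 0.43 under the other scalings. Stard4 rose from 34.7 ± 2.87 to 41.4 ± 1.89 RPKM (0.25, adjusted p = 0.00399). Srebf1 (13.7 ± 1.55 against 8.58 ± 0.842 RPKM, log2 change 0.62, adjusted p = 0.00221) and Scap (29.0 ± 0.466 against 22.5 ± 1.46, 0.36, adjusted p = 0.000269) rose as deposited and after quantile normalization, and lost the call after loess normalization (0.29 and 0.11, adjusted p = 0.0699 and 0.0968). Insig2 rose as deposited (0.24) and passed under neither other scaling. Insig1 did not pass, at 51.4 ± 3.04 against 49.8 ± 2.93 RPKM.

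Of the fatty acid genes, Fasn read 31.5, 34.5 and 26.6 RPKM without treatment and 47.5, 49.4 and 51.6 with TTX, a log2 change of 0.67 (SE 0.09, adjusted p = 4.6e-05) in groups that do not overlap. Acaca rose from 21.4 ± 2.57 to 28.7 ± 0.684 RPKM (0.42, adjusted p = 0.00057, with 0.28 and 0.19 under the other scalings) and Acly from 47.2 ± 2.91 to 57.5 ± 3.38 (0.28, adjusted p = 0.00145). Acly, Acaca and Fasn are the 3 enzymes that turn citrate into palmitate, and all passed under the 3 scalings. The enzymes that modify the finished chain did not pass under any of the scalings, with deposited values as follows: Scd1 (log2 change 0.17), Scd2 (-0.16), Elovl6 (0.02), Fads1 (0.02) and Fads2 (0.01), nor did Lpin1 (0.22). For Elovl6, Fads1 and Fads2 the 95% intervals ran from -0.12 to 0.16, from -0.11 to 0.15 and from -0.12 to 0.13. In 19 of the 32 genes every TTX library lay above every non-treated library and in 1 below, where 43.5% and 26.1% of all genes did so.

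Bic/4AP against TTX sets the driven neurons directly against the silenced ones, with libraries that the other comparisons also use. Under all 3 scalings 5 of the 32 were higher and 9 lower with Bic/4AP, where 19.0% of all tested genes were higher and 30.8% lower. As deposited, 15 were higher and 12 lower (all genes: 23.7% and 53.1%), with 8 and 15 after quantile (all genes: 33.7% and 36.2%) and 8 and 16 after loess normalization (34.7% and 35.7%). In the highest decile, which holds 15 of the 32, 80.6% of all genes were higher as deposited. Over the 32 genes the median log2 change was 0.14 on the deposited values and -0.17 and -0.14 under quantile and loess normalization; over all genes the same medians were -0.33, -0.03 and -0.01. In 17 of the 32 every Bic/4AP library lay above every TTX library and in 13 below, against 25.6% and 55.9% of all genes.

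The mevalonate pathway split in this comparison. Mvd (17.8 ± 1.21 against 45.8 ± 2.54 RPKM), Mvk (19.9 ± 1.71 against 45.9 ± 0.417) and Pmvk (18.5 ± 0.678 against 36.6 ± 2.18) were lower with Bic/4AP, with log2 changes of -1.32, -1.17 and -0.95 and adjusted p of 4.79e-06, 3.58e-06 and 3.88e-07. Idi1, the next enzyme after Mvd, was higher (107 ± 10.96 against 50.02 ± 2.37 RPKM, log2 change 1.08, adjusted p = 2.08e-07), and so was Ggps1 (0.31, adjusted p = 0.00045). Idi1 kept changes of 0.54 and 0.46 under the other scalings, and Pmvk of -0.74 and -0.59. Hmgcs1 (0.85), Acat2 (0.10) and Fdps (0.12) took the opposite sign under 1 or both of the other scalings, and of these Hmgcs1 alone passed as deposited. Acat2 and Fdps passed as lower under both other scalings and Hmgcs1 after loess normalization.

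Among the sterol steps Nsdhl and Hsd17b7 were higher with Bic/4AP, and Lss and Dhcr7 lower, under all 3 scalings. As deposited, after quantile and after loess, the log2 changes were 0.66, 0.21 and 0.18 for Nsdhl, 0.48, 0.32 and 0.30 for Hsd17b7, -0.90, -0.53 and -0.46 for Lss, and -0.29, -0.46 and -0.44 for Dhcr7. Ebp did not pass as deposited, at 25.4 ± 1.02 against 22.4 ± 0.348 RPKM (log2 change 0.17, adjusted p = 0.16), though its groups did not overlap, and it passed as higher under the other scalings (0.48 and 0.67). Fdft1 did the same (0.14 as deposited, 0.46 and 0.49 after). Sqle and Cyp51 were higher as deposited (0.50 and 0.51) and did not hold as higher, Sqle passing as lower after loess normalization (-0.07), and Tm7sf2 was lower (-0.49) and lost the call after loess normalization.

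All 3 genes of the SREBP and SCAP proteins were lower with Bic/4AP than with TTX under all 3 scalings. Srebf1 was at 4.48 ± 0.930 against 13.7 ± 1.55 RPKM (log2 change -1.43, SE 0.14, adjusted p = 1.71e-06), with -0.65 and -0.59 after quantile and loess normalization, beside a median of -0.84 in its decile. Scap was at 15.4 ± 0.173 against 29.0 ± 0.466 RPKM (-0.88, adjusted p = 1.07e-07), with -0.52 and -0.50 under the other scalings. Srebf2 was at 42.1 ± 1.54 against 52.2 ± 2.11 RPKM (-0.30, adjusted p = 0.000963), with -0.57 and -0.51 under the other scalings. Insig1 (0.51) and Stard4 (0.15) were higher as deposited and did not hold, and Insig2 (-0.13) did not pass as deposited and passed as higher under the other scalings (0.20 and 0.23).

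Of the fatty acid genes Fasn was lower (28.9 ± 2.34 against 49.5 ± 2.06 RPKM, log2 change -0.76, adjusted p = 6.75e-06) and Elovl6 higher (61.5 ± 4.14 against 42.0 ± 1.46, 0.54, adjusted p = 1.07e-05, with 0.24 and 0.25 under the other scalings) under all 3 scalings. The other 7 were called as deposited and did not hold: Scd2 (0.57), Fads2 (0.53), Fads1 (0.23), Scd1 (0.21) and Acly (0.20) were higher, and Lpin1 (-0.94) and Acaca (-0.43) lower. Of these, Scd2, Fads1 and Acly passed as lower under both other scalings (Scd2 -0.17 and -0.28, Fads1 -0.19 and -0.19, Acly -0.28 and -0.24), and the other 4 passed under neither. Fasn and Elovl6 act in sequence on the same chain, the synthase that makes palmitate and the elongase that extends it.

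The other genes of the pathway were read from 6 further lists, and log2 changes of their genes are as deposited unless 3 stand in a row, which are as deposited, after quantile and after loess. Their counts stand beside these shares of all tested genes: with Bic/4AP against non-treated 21.6% rose and 27.8% fell under all 3 scalings (29.6% and 42.5% as deposited), with TTX 28.7% and 21.8% (40.6% and 23.5%), and against TTX 19.0% were higher and 30.8% lower with Bic/4AP (23.7% and 53.1%). Of 9 genes that process or degrade the SREBP and INSIG proteins, 4 rose and 1 fell with Bic/4AP against non-treated under all 3 scalings (6 and 1 as deposited). The gene that fell was Mbtps1, the site-1 protease that makes the first cut in SREBP, at 5.93 ± 0.19 against 22.4 ± 1.13 RPKM (log2 change -1.75, adjusted p = 4.08e-09). Fbxw7, whose protein marks nuclear SREBP for degradation, rose from 31.8 ± 0.49 to 40.9 ± 0.46 (0.35, 0.20 and 0.20, adjusted p = 2.43e-05 as deposited). Pgrmc1 rose as deposited (0.57) and passed as lower after loess normalization (-0.17). With TTX, none rose and 1 fell under all 3 scalings (2 and 2 as deposited): Mbtps2, the site-2 protease, at 25.8 ± 0.12 against 29.5 ± 2.10 (-0.19, -0.42 and -0.33, adjusted p = 0.0364 as deposited). Erlin1 (0.20) and Pgrmc1 (-0.28) passed as deposited alone, and Faf2 (0.37) also after quantile normalization (0.20). Against TTX, Bic/4AP libraries had less Mbtps1 (-1.81, -1.15 and -1.16, adjusted p = 5.14e-09 as deposited) and more Mbtps2 (0.63, adjusted p = 5.48e-06) under all 3 scalings, and more Pgrmc1 (0.85, turned to -0.12 after loess) and less Faf2 (-0.35) as deposited.

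Of 13 genes of the branches that leave the pathway for ubiquinone, dolichol and protein prenylation, none passed under all 3 scalings with Bic/4AP against non-treated (2 rose and 5 fell as deposited), while with TTX 8 rose and 1 fell (10 and 1 as deposited). Rabggta, a subunit of the transferase that prenylates Rab proteins, rose with TTX from 15.4 ± 1.45 to 25.0 ± 0.58 RPKM (0.67, 0.54 and 0.37, adjusted p = 2.13e-05 as deposited), and Icmt, which methylates prenylated proteins, from 13.4 ± 1.13 to 22.1 ± 1.36 (0.68, 0.53 and 0.37, adjusted p = 2.19e-05 as deposited). Nus1, a subunit of the enzyme that makes the dolichol chain, fell (-0.20, -0.35 and -0.26, adjusted p = 0.00593 as deposited). As deposited with Bic/4AP, Nus1 (0.37) and Rabggtb (0.18) rose and Rabggta (-0.47) and Icmt (-0.43) fell. Against TTX, Bic/4AP libraries had 1 gene of this list higher and 7 lower under all 3 scalings (1 and 10 as deposited), with Nus1 at 0.57, 0.41 and 0.36, Rabggta at -1.14, -0.63 and -0.55 and Icmt at -1.11, -0.53 and -0.45.

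Of 10 tested of 11 genes that export, oxidize or sense sterol, 1 rose and 5 fell with Bic/4AP against non-treated under all 3 scalings (1 and 8 as deposited). Abca1, the exporter of cholesterol to lipoproteins, rose (12.9 ± 0.91 against 10.0 ± 1.18 RPKM, 0.33, 0.74 and 0.77, adjusted p = 0.0153 as deposited), and Nr1h2, the sterol-sensing receptor LXR-beta, fell (10.1 ± 0.47 against 15.9 ± 0.96, -0.61, -0.21 and -0.30, adjusted p = 1.2e-05 as deposited), as did Hsd3b7, of bile acid synthesis (-1.11, -0.62 and -0.67). With TTX 2 rose and 2 fell (3 and 2 as deposited): Nr1h2 (0.57, 0.41 and 0.26, adjusted p = 4.23e-05 as deposited) and the exporter gene Abcg1 (17.7 ± 1.12 against 10.2 ± 1.05 RPKM, 0.74, 0.59 and 0.41, adjusted p = 7.53e-05 as deposited) rose, and Nr1h3 (-0.81) and Hsd3b7 (-0.57) fell. Against TTX, Bic/4AP libraries had none higher and 4 lower under all 3 scalings (8 lower as deposited), among them Nr1h2 (-1.17, -0.62 and -0.56) and Abcg1 (-1.46, -0.74 and -0.65).

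Of 12 genes of sterol uptake, storage and transfer, 1 rose and 6 fell with Bic/4AP against non-treated under all 3 scalings (2 and 9 as deposited). Soat1, which esterifies cholesterol for storage, rose (17.5 ± 0.18 against 10.9 ± 1.36 RPKM, 0.65, 0.95 and 1.05, adjusted p = 5.12e-05 as deposited), and the lipoprotein receptor genes Lrp1 (9.86 ± 0.76 against 36.2 ± 5.71, -1.77, adjusted p = 2.6e-08) and Lrp8 (18.1 ± 0.29 against 31.98 ± 1.16, -0.78, adjusted p = 7.52e-08) fell. Vldlr rose as deposited alone (0.13). With TTX 2 rose and 3 fell (5 and 3 as deposited), among them the sterol transfer gene Osbpl2 (0.41, 0.36 and 0.24) and the HDL receptor gene Scarb1 (0.61, 0.45 and 0.31) higher and Gramd1b (-0.52) and Lrp1 (-0.57) lower. Against TTX 2 were higher and 7 lower with Bic/4AP (2 and 10 as deposited), among them Soat1 (0.71, 1.23 and 1.44) and Vldlr (0.19, 0.32 and 0.29) higher and Lrp8 (-0.66, -0.36 and -0.43) and Stard3 (-1.44, -0.67 and -0.62) lower.

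Of 23 tested of 26 other fatty acid genes, 9 rose and 7 fell with Bic/4AP against non-treated under all 3 scalings (12 and 10 as deposited), and 6 rose and 6 fell with TTX (9 and 6 as deposited). With Bic/4AP, Acsl4, which activates arachidonic acid, rose from 59.7 ± 3.43 to 108 ± 1.38 RPKM (0.85, 0.32 and 0.35, adjusted p = 9.4e-08 as deposited) and the elongase gene Elovl5 from 40.4 ± 2.94 to 72.2 ± 3.74 (0.82, 0.42 and 0.49, adjusted p = 2.71e-07 as deposited), while the mitochondrial fatty acid synthesis genes Mecr (-0.89, -0.54 and -0.62) and Mcat (-1.37, -0.81 and -0.92) fell. With TTX, Thrsp, a lipogenic gene of liver and fat, rose from 19.5 ± 3.54 to 48.0 ± 2.57 RPKM (1.28, adjusted p = 2.28e-06) and Mcat (1.08) rose, while Elovl7 (-1.90) and Acacb (-1.42) fell. Against TTX, 8 were higher and 8 lower (9 and 10 as deposited), with Acsl4 (1.18, 0.67 and 0.60) and Elovl4 (0.72, 0.37 and 0.35) higher and Mcat (-2.45) and Mecr (-1.20, -0.65 and -0.64) lower.

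Of 14 tested of 15 genes of fatty acid oxidation, 2 rose and 6 fell with Bic/4AP against non-treated under all 3 scalings (3 and 10 as deposited). Acadvl, the very long chain acyl-CoA dehydrogenase, fell from 26.1 ± 3.42 to 7.41 ± 0.38 RPKM (log2 change -1.68, adjusted p = 2.04e-08), and Acaa2 fell (-0.64), while the coactivator gene Ppargc1a rose (35.5 ± 1.73 against 23.9 ± 1.22, 0.55, adjusted p = 5.56e-06). With TTX 3 rose and 3 fell (5 and 4 as deposited), among them the carnitine carrier gene Slc25a20 (0.77, 0.64 and 0.48) and Acaa2 (0.41, 0.39 and 0.24) higher and Cpt1b (-1.05) and Cpt1a (-0.79) lower. Against TTX 3 were higher and 4 lower with Bic/4AP (4 and 10 as deposited), with Ppargc1a (0.82) and Hadhb (0.32, 0.63 and 0.65) higher and Acadvl (-1.65, -1.05 and -1.097) and Acaa2 (-1.05) lower.

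H3K27ac, a mark of active promoters and enhancers, was read at every listed start of the 25 genes with a promoter entry. A peak near any of its starts counted for a gene. A peak lay within 1 kb of a listed start for 10 and 22 of the genes in the 2 non-treated lists and for 16 and 21 in the 2 Bic/4AP lists. Of all 10676 tested genes with a start, 15.1%, 44.2%, 32.6% and 57.1% had a peak there. The lists held 4846, 49701, 7721 and 55035 peaks, so lists of 1 treatment differed in length, and no test was made of presence in lists of such unequal length.

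Hmgcs1, Pmvk, Mvd, Idi1, Cyp51, Insig1, Srebf2, Fasn and Fads2 had a peak in all 4 lists. Ebp and Mvk had one in 3 lists, not in the first non-treated list, and the highest score the authors gave a peak there was 340.5 for Ebp and 102 for Mvk in the second non-treated list and 909 and 174 in the second Bic/4AP list. In the first Bic/4AP list the scores were 67.0 and 169. Between the second lists scores of other members fell, among them Tm7sf2 (724 to 139), Dhcr7 (702 to 102) and Fads2 (2507 to 1053). No test was made of the scores. Acaca, Lpin1 and Scap had no peak in any list, and Srebf1 had one in the second non-treated list alone. No listed start of the 25 genes lay within 1 kb of a peak in either H3K4me1 list, where 155 and 156 of the 10676 tested genes had such a peak.

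CpG methylation was read within 1 kb of the most upstream listed start alone, as a mean of the deposited fractions of listed CpGs. Its median over the 25 genes was 0.0514 with TTX, 0.0585 without treatment and 0.0675 with Bic/4AP. Over all tested genes the medians were 0.0597, 0.0594 and 0.0595. Within 500 bases of the start the same medians were 0.0169, 0.0130 and 0.0114 (all genes: 0.0141, 0.0139 and 0.0140), so the order of the treatments turned with the window. With 1 library per treatment and no coverage, the difference between treatments has no replicate check and the depth is unknown. Within 1 kb, 16 to 17 of the 25 were below 0.1 in each library, where 67.5% to 67.9% of all genes were. Hmgcs1 was at 0.0139, 0.00589 and 0.0102 and Mvk at 0.0469, 0.0426 and 0.0348, in the order TTX, non-treated and Bic/4AP. Ebp was at 0.135, 0.104 and 0.129 over 48 to 54 listed CpGs.

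A few genes were methylated at the start used here. Insig2 was at 0.959, 0.874 and 0.913, Acaca at 0.928, 0.878 and 0.858, Lpin1 at 0.820, 0.845 and 0.882 and Pmvk at 0.829, 0.805 and 0.805, with 9 to 29 listed CpGs each. Srebf1 lay between, at 0.303, 0.261 and 0.257 over 52 to 60 CpGs. Acaca and Lpin1 had no H3K27ac peak in any list. Peaks were read at every listed start, and Pmvk, Insig2 and Srebf1 have 2, 3 and 3 of them. Their peaks may thus lie at a start other than the one whose methylation is given. That start is the most upstream entry, which need not be the one these neurons use. All of these genes had RNA without treatment. Acaca was at 21.4, Insig2 at 20.2, Pmvk at 15.6, Lpin1 at 12.6 and Srebf1 at 8.58 RPKM. In that order they ranked 22, 23, 29, 30 and 32 by level among the 32 genes. Genes of lower methylation also ranked low. Mvd, Lss, Mvk, Tm7sf2 and Ebp, at 0.0249, 0.135, 0.0426, 0.128 and 0.104 without treatment, ranked 25, 26, 27, 28 and 31. The methylation came from C57BL/6 and the RNA from ICR neurons.

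**Figure D4:**
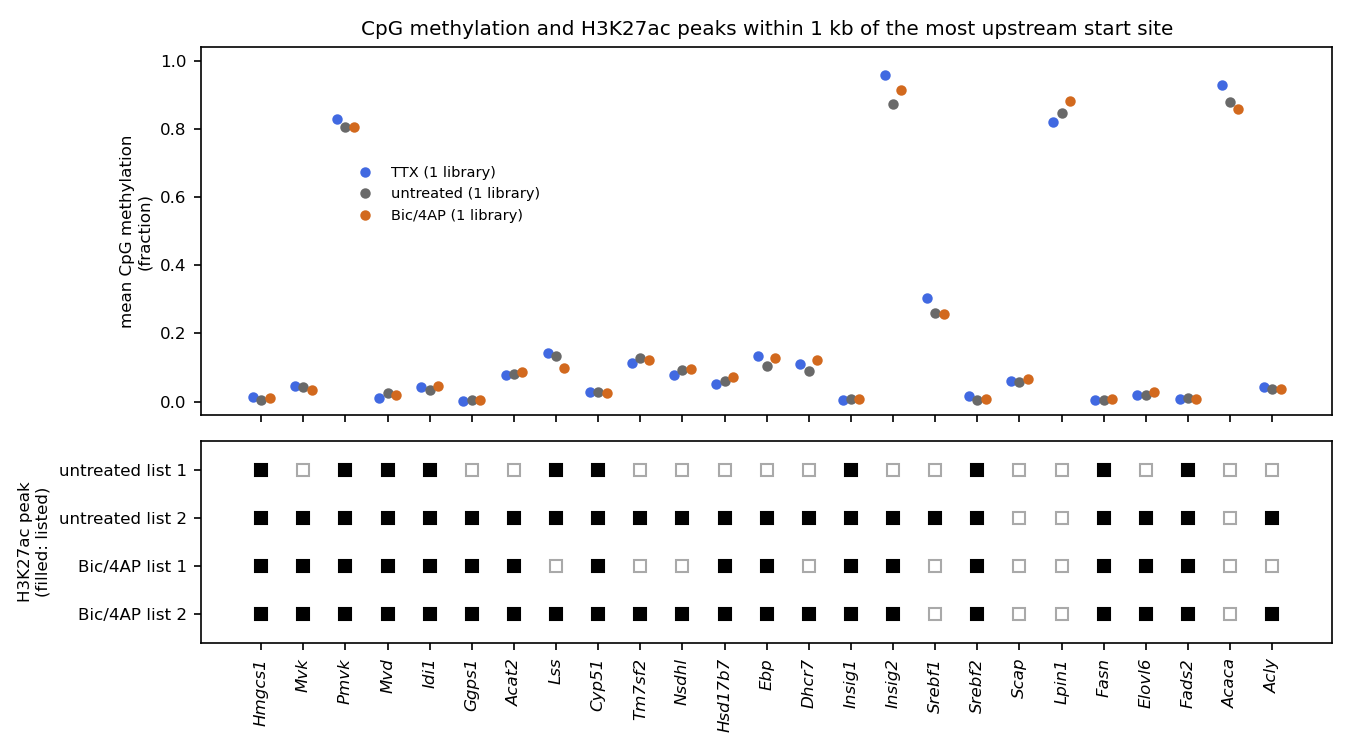
Top: mean CpG methylation (fraction) within 1 kb of the most upstream start of the 25 genes with a promoter entry, in 1 library per treatment. Bottom: filled squares mark a listed H3K27ac peak within 1 kb of any listed start of the gene in each of the 4 lists. The printed title names the most upstream start, which holds for methylation alone. Most of these upstream starts are below 0.15, and most genes carry a peak in the 2 long lists. Insig2, Acaca, Lpin1 and Pmvk are above 0.8 in all 3 libraries.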

How the data were processed

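RNA, H3K27ac, H3K4me1 and CpG methylation files were read; the input sample was not used here. The deposited expression values are RPKM, 1 per gene and library, from poly(A) RNA and the NEBNext Ultra Directional kit per the labels' protocols; the counter, its strand setting and its treatment of duplicate or shared reads are not stated there, so overlapping genes cannot be told apart. Per the submitters' processing notes, the tools were Bowtie2 2.2.4, SAMtools 0.1.19, MACS 1.4.1 and TopHat and the build was mm10. The deposited peak lists give the authors' score per peak, at least 50 in each list. Methylation was deposited as the fraction of each CpG, between 0 and 1, without coverage, from post-bisulfite adaptor tagging per the labels.

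Lines with a repeated gene name (4 of 24062) were left out. Values of 19587 of 19588 genes tried came out as whole multiples of 1 read within 0.05 of a read, which gave the depths. Tests were made in limma 3.58.1 (R 4.3.3), with a trend of variance on level, for log2(RPKM + 1) of genes that reached 1 RPKM in no fewer than 3 libraries. A single fit held the 9 libraries, with treatment as its term, and calls needed a Benjamini-Hochberg adjusted p under 0.05. Counts of members, peaks and CpGs were made in Python 3.11.15 with pandas 2.3.3. The code was tested on simulated data. Start sites came from RefSeq. A peak counted for a gene within 1 kb of any of its listed starts. Methylation was read within 1 kb of the most upstream start, with at least 5 listed CpGs required. Alternatives were a pseudocount of 0.1, no filter, quantile and cyclic loess normalization, a replicate block, fits on 6 libraries, each library left out, a change of at least 1.5-fold, other windows, and a score of 100.

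The members, the lists, the scalings and the tests were chosen with earlier results of these data known. All 32 members are named; of each further list and comparison, up to 2 genes per direction with the smallest p are named. Promoters were to be printed for members that rose with Bic/4AP and hold the sterol element; Ebp and Mvk were added later.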

Additional observations from a re-analysis of the deposited data

How the results depend on the processing

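A pseudocount of 0.1 RPKM changed no call of a member, and no filter took 2 calls from Bic/4AP against TTX. Quantile and cyclic loess normalization moved the count of members that rose with Bic/4AP from 22 to 14 and 13 against non-treated, and from 15 to 8 and 8 against TTX. In the highest decile of all genes they brought the median log2 change with Bic/4AP from 0.4465 to 0.029 and 0.0072 against non-treated. Against TTX it went from 0.5043 to 0.0437 and 0.0065. With TTX against non-treated the median of that decile moved the other way, from -0.077 to -0.0427 and -0.0327. Values below give quantile then loess log2 changes where the sign turned. Against non-treated with Bic/4AP these were -0.0393 and -0.0795 for Acat2, -0.0257 and -0.0843 for Srebf2, -0.11 and -0.25 for Scd2, -0.13 and -0.15 for Fads1, and -0.19 (loess) for Hmgcs1. With TTX they were 0.0091 (quantile) for Hmgcs1 and -0.0025 (loess) for Insig2. For Bic/4AP against TTX they were -0.19 (loess) for Hmgcs1, -0.32 and -0.23 for Fdps, -0.0694 and -0.0694 for Sqle, -0.41 and -0.39 for Acat2, 0.20 and 0.23 for Insig2, -0.0291 and -0.0045 for Stard4, -0.0942 and -0.0682 for Scd1, -0.17 and -0.28 for Scd2, -0.19 and -0.19 for Fads1, and -0.28 and -0.24 for Acly. The cause was not tested.

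Against non-treated, a change of at least 1.5-fold left 3 rises and 2 falls with Bic/4AP and 8 rises and 0 falls with TTX (3 falls by adjusted p in limma). For Bic/4AP against TTX it left 3 rises and 8 falls. The share of all tested genes at that fold was not counted. Falls with TTX numbered 1 in the fit of 6 libraries and 1 to 4 when each library was left out; the calls lost were those of Hmgcs1 and Nsdhl. Leaving out each library gave 20 to 24 rises and 4 to 5 falls with Bic/4AP, 17 to 18 rises with TTX, and 12 to 14 rises with 12 falls for Bic/4AP against TTX. That last comparison was refitted without each TTX and each Bic/4AP library, not without non-treated ones. Stard4 was lost without any of these libraries but TTX 3, Scd1 without any TTX library or Bic/4AP 3, and Acly without TTX 1. In the fits that left out a library or used 6 libraries, the share of all genes called was not counted. Counts of members in those fits thus cannot be set against all genes.

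No pairing by replicate number was seen. Correlations of deviations ran from -0.17 to 0.04 between same-numbered libraries and from -0.13 to 0.21 between differently numbered ones. With 3 libraries a group, these values cannot show whether same-numbered libraries shared a culture. With the replicate block the counts were 22 and 4 with Bic/4AP, 17 and 3 with TTX, and 14 and 12 for Bic/4AP against TTX. The share of all genes called with the block was not counted. A peak score of 100 or more left 5 of 10 members in the first non-treated list and 8 of 16 in the first Bic/4AP list (all genes: 15.1% to 4.83% and 32.6% to 16.3%), and 20 of 22 and 21 of 21 in the second lists (44.2% to 36.4% and 57.1% to 51.2%). A window of 500 bases lowered the median methylation of the members to 0.0169 with TTX, 0.0130 without treatment and 0.0114 with Bic/4AP, and reversed their order. Depth limits the low genes, and with depth tied to treatment the rises of abundant members cannot be told apart from the scale.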

Other observations

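Abundant members were also compared between libraries of the same group. Of the 18 members above 40 RPKM, all 18 read lower in TTX library 1 (12.6 M reads) than in TTX library 3 (9.66 M), with a median log2 ratio of -0.13, while the other 14 had a median of -0.01. In non-treated library 2 (9.94 M reads) 12 of the 18 read lower than in library 1 (5.61 M) and 7 lower than in library 3 (5.71 M), with medians of -0.09 and 0.06, and the other 14 had medians of 0.14 and 0.28. Between non-treated libraries 1 and 3, of nearly the same depth, the median was 0.15 over the 18, with 2 lower in library 1, and 0.14 over the other 14. Differences of this size thus also stood between libraries of like depth, and the part of depth was not tested.

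Single astrocyte markers did not move as one. Gfap, the filament gene of astrocytes, was at 10.2 RPKM without treatment, 20.4 with Bic/4AP and 27.9 with TTX, and was higher than non-treated in both under all 3 scalings. Sox9, a glial transcription factor gene, was at 10.7, 22.6 and 7.09, with log2 changes of 1.03 with Bic/4AP and -0.52 with TTX. Aldoc was at 16.7, 25.6 and 38.6, and the glutamate transporter gene Slc1a3 at 23.9, 37.0 and 29.2. In the same order Aldh1l1 was at 5.79, 3.07 and 9.48: it fell with Bic/4AP as deposited (log2 change -0.75, adjusted p = 0.000974 in limma) and under neither other scaling, and rose with TTX under all 3. The other 4 of the 9 were at 3.602, 6.08 and 5.74 (Aqp4), 6.85, 12.95 and 8.99 (Gja1), 59.8, 85.5 and 55.2 (Slc1a2) and 1.23, 1.35 and 2.41 (S100b).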
